A study of Mus musculus with 6 samples.

Results

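Igf2, H19 and Ins2 are neighbouring imprinted genes on distal mouse chromosome 7, and their RNA was followed here in wild-type and *Ube2d3*-S138A embryonic stem cells (ESCs). The 3 genes were found by their Ensembl identifiers among the 37620 genes of the count table, and 2 of them, Igf2 and H19, held enough counts to pass the filter on low values. They were picked for the opposite changes of Igf2 and H19 between the genotypes, on these same libraries, so the difference between the genotypes in these genes is given as a description and without a test. E14 is an ESC line of strain 129/Ola. The wild-type group was 3 libraries of unedited E14 cells, and the S138A group was 3 libraries of E14 cells in which CRISPR/Cas9 editing had put alanine in place of a serine near the C-terminus of UBE2D3, a ubiquitin-conjugating enzyme (S138A). Both groups were undifferentiated cells grown in serum, according to the study's methods on gelatin with leukaemia inhibitory factor. The edited cells came from individually picked clones. The study's functional comparisons used a single S138A clone and an A138S revertant made from it. No revertant library is in this series, so genotype and clone cannot be told apart here. The study's text does not tie the RNA libraries to a clone by name. Whether each library came from its own culture is not given by the labels, and p-values then measure the spread between these libraries, which may be technical.

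Igf2 encodes a growth factor that signals through the IGF1 and insulin receptors, and H19 is a spliced, polyadenylated long non-coding RNA. The pair is the textbook case of reciprocal imprinting, in which the paternal chromosome expresses Igf2, the maternal chromosome expresses H19, and a control region between them, bound by CTCF on the unmethylated maternal copy, decides which gene reaches the shared enhancers. Ins2 encodes a preproinsulin, is expressed chiefly in pancreatic beta cells and is imprinted only in some extraembryonic tissue. H19 is also the host of the microRNA gene Mir675, and Igf2 is the host of Mir483.

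In the GENCODE M21 annotation of GRCm38, H19 (ENSMUSG00000000031) lies at chr7:142575529-142578143, Igf2 (ENSMUSG00000048583) at chr7:142650766-142666816 and Ins2 (ENSMUSG00000000215) at chr7:142678656-142743381, all on the minus strand. The ends of H19 and Igf2 are 72622 bases apart and those of Igf2 and Ins2 11839 bases apart. The Mir675 hairpin lies in exon 1 of the 5 exons of the longest H19 transcript, H19-202, at bases 997 to 1080 of that RNA, and 3 of the 7 annotated H19 transcripts hold it whole. Mir483 lies in intron 2 of Igf2-201, which has 4 exons. The hairpin inside H19 is shown because its letters lie in an exon of H19. Whether reads in it were counted for H19 is not known. It is read from RefSeq (GRCm38.p6) at chr7:142577064-142577147 on the minus strand, with its mature arms in capitals. The mature microRNAs of both hosts follow, with the seed, bases 2 to 8, in capitals.
Mir675 hairpin: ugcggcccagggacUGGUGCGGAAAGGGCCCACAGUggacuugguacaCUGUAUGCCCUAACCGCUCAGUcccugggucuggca
miR-675-5p: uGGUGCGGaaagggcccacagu
miR-675-3p: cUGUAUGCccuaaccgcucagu
miR-483-5p: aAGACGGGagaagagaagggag
miR-483-3p: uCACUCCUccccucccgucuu
The 4 seeds differ from each other. PolyA libraries of long RNA do not measure mature microRNAs, so none of these 4 molecules has a value here.

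RefSeq lists 4 start windows for Igf2, and gene-level counts do not separate the transcripts that begin at each. The 250 bases before each start were searched on both strands for the TATA box letters TATAAA, the GC box letters GGGCGG and the CCAAT box, which share no match here. Of 32817 such windows over all genes, 12.4% held TATAAA, 32.7% held GGGCGG and 33.8% held CCAAT. The 2 Igf2 windows that held any of them are shown, both on the minus strand, at chr7:142658805-142659054 and chr7:142657497-142657746, with the matches in capitals. The former held 1 GGGCGG match and 22 CpG dinucleotides, and the latter held 2 GGGCGG matches, 1 CCAAT match and 6 CpG dinucleotides, where the median window held 6.
Igf2 upstream window at 142658805: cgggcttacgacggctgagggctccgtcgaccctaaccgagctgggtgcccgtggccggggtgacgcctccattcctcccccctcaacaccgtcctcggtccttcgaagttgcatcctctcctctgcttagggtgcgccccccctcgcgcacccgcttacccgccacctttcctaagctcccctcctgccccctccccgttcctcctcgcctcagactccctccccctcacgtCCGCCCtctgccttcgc
Igf2 upstream window at 142657497: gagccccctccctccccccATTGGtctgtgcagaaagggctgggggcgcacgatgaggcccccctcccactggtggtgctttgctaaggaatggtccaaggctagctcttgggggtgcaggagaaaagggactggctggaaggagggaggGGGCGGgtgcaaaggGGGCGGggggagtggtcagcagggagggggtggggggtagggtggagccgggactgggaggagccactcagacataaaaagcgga

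The libraries held 33227593 to 37169770 counts each. The leading principal component (57.2% of the variance) set wild-type 3 together with S138A C apart from the rest, while the next (25.6%) separated the genotypes. Results are therefore also given within wild-type 1 and 2 with S138A A and B, and for wild-type 3 with S138A C. CPM here means counts scaled to the library size with TMM factors. The level of Ube2d3 RNA, 265 to 491 CPM over the libraries, cannot check a change of 1 amino acid. ESC markers fit the label, since all 12 of a marker list passed the filter and their summed level was 7598 to 8302 CPM in wild-type and 7968 to 8400 CPM in S138A libraries. The sum does not show single markers, of which Tbx3 rose from a mean of 139 to 236 CPM and Zfp42 fell from 925 to 726 CPM. In bulk RNA, fewer cells of a type and less RNA per cell cannot be told apart, which holds for every level below.

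Igf2 RNA was higher in all S138A libraries. Igf2 held 2297, 2433 and 2980 counts in wild-type 1, 2 and 3, against 7121, 7004 and 6093 in S138A A, B and C. In CPM that was 69.5, 77.0 and 78.1 for the wild-type libraries against 206, 190 and 164 for the S138A libraries. The groups did not overlap, and the highest wild-type library was 2.10-fold below the lowest S138A library. Igf2 thus stood at 74.9 ± 4.67 CPM in wild-type and 187 ± 21.2 CPM in S138A cells (SD, n = 3 each), a 2.50-fold difference. The log2 fold change in edgeR was 1.32 with a standard error of 0.117. Wild-type 3 was 1.07 times the mean of wild-type 1 and 2, and S138A C was 0.828 times the mean of S138A A and B, so Igf2 separated the genotypes and hardly followed the split between the libraries. Within wild-type 1 and 2 with S138A A and B the difference was 2.71-fold, and between wild-type 3 and S138A C it was 2.10-fold. Among the 16023 genes tested, Igf2 had the 205th largest log2 fold change upwards. Among the 1556 genes with a mean level at least as high as that of Igf2, it ranked 1. By level it moved from rank 2906 in wild-type to rank 961 in S138A cells.

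H19 RNA went the other way, from an uneven level in wild-type cells to a low one in S138A cells. H19 held 514, 444 and 2611 counts in wild-type 1, 2 and 3, against 55, 56 and 96 in S138A A, B and C. In CPM that was 15.6, 14.0 and 68.4 for the wild-type libraries against 1.59, 1.52 and 2.59 for the S138A libraries. Wild-type 3 was 4.62 times the mean of the other wild-type libraries, so the wild-type mean of 32.7 ± 31.0 CPM (SD, n = 3) describes no single library well. The S138A mean was 1.90 ± 0.596 CPM (SD, n = 3), 17.2-fold lower. All the same the groups did not overlap, since the lowest wild-type library was 5.43-fold above the highest S138A library. The log2 fold change in edgeR was −4.10 with a standard error of 0.718, the most negative of the 16023 genes tested. Leaving out wild-type 3 brought it to −2.96. At 55 counts the exact 95% Poisson interval of S138A A ran from 41.4 to 71.6 counts, which covers counting error only, and all S138A libraries lay far above the limit of 3 counts that stands for an absent RNA.

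The size of the H19 difference moved with the libraries while its direction did not. Wild-type 1 was 9.76 times S138A A and wild-type 2 was 9.23 times S138A B, but wild-type 3 was 26.4 times S138A C. Within wild-type 1 and 2 with S138A A and B the difference was 9.50-fold. The ratio of wild-type 3 to the mean of wild-type 1 and 2 placed H19 at rank 77 of 16023 genes, whereas the same ratio for S138A C, 1.66, placed it at rank 2315. For Igf2 the corresponding ranks were 6803 and 11110. The difference between 9.50-fold and 26.4-fold was not tested, as each genotype has 1 library on that side of the split.

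**Figure D1:**
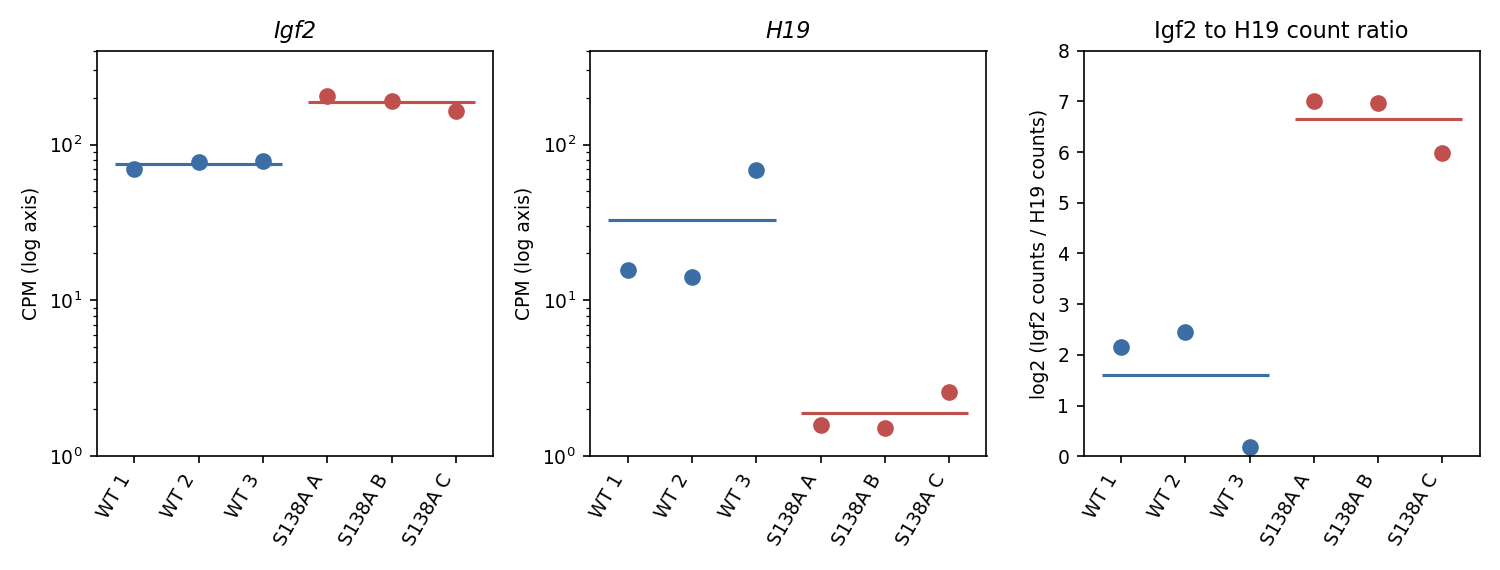
Levels of Igf2 and H19 in CPM (log axes, left and middle) and the log2 ratio of Igf2 to H19 counts (right) in 3 wild-type (WT, blue) and 3 S138A (red) libraries; points are libraries and lines group means. S138A libraries lie above all wild-type libraries for Igf2 and the ratio and below them for H19, and wild-type 3 stands at 68.4 CPM of H19 against 15.6 and 14.0 CPM in the other wild-type libraries.

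The ratio of the pair within a library needs no scaling between libraries. Wild-type 1, 2 and 3 held 4.47, 5.48 and 1.14 Igf2 counts per H19 count. S138A A, B and C held 129, 125 and 63.5. On the log2 scale the ratio was 1.60 ± 1.23 in wild-type and 6.66 ± 0.58 in S138A cells (SD, n = 3 each), a difference of 5.06, or 33.3-fold. The difference was 4.35 without wild-type 3 alone, 4.68 without wild-type 3 and S138A C, and 5.80 between those libraries. The lowest S138A ratio, 5.99 on the log2 scale, lay well above the highest wild-type ratio of 2.45. Per kilobase of annotated exon, with 5723 bases for Igf2 and 2460 for H19, the ratio was 1.92, 2.36 and 0.491 in wild-type 1, 2 and 3. Wild-type 3 was therefore the library in which H19 exceeded Igf2 per length. In S138A A, B and C the ratio per kilobase was 55.7, 53.8 and 27.3.

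Because these genes were picked on this contrast, their place among all genes is only a setting for the values. edgeR's quasi-likelihood test with Benjamini-Hochberg adjustment called 0% of the 16023 genes (lowest adjusted p 0.0548), although 1221 genes were higher and 1049 lower at an unadjusted p under 0.05. With the replicate number as a block, which fits the split between the libraries, 10.7% of genes were called higher and 9.13% lower. For the S138A libraries this number was the last digit of the column's name, as no label gives it. Deviations from group means set only wild-type 3 with S138A C apart as a pair (correlation 0.753). The other pairs could be crossed as well, and all calls with the block rest on this assumed pairing. All 3 S138A values lay above the 3 wild-type values in 11.3% of genes, as for Igf2, and below them in 10.9%, as for H19.

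**Figure D2:**
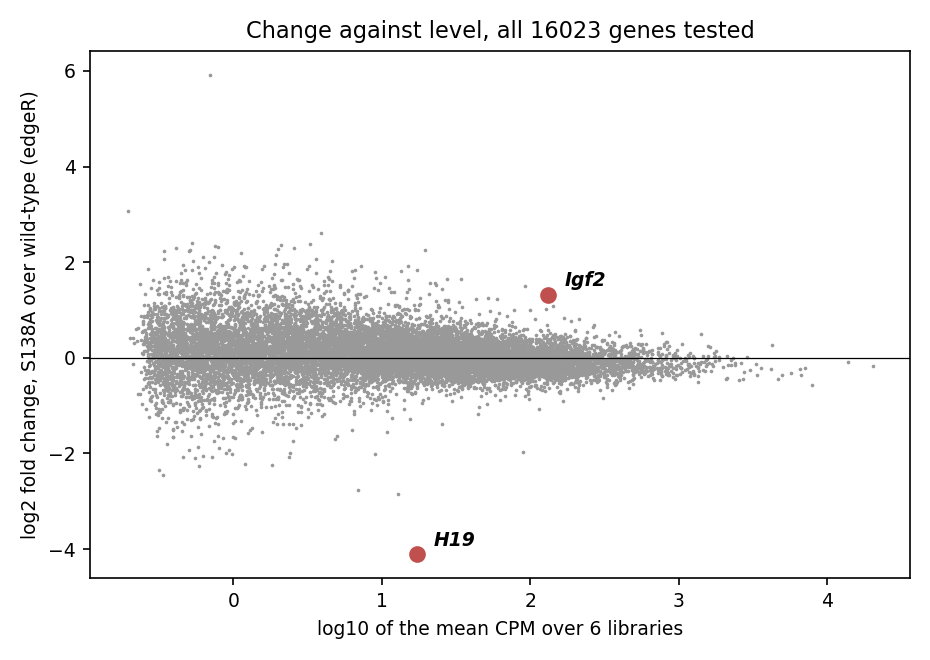
Log2 fold change (S138A over wild-type, edgeR) against the log10 of the mean CPM over 6 libraries for all 16023 genes tested; each point is a gene. Igf2 lies at 1.32, on the upper edge of genes of its level, and H19 at −4.10, below all other genes.

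Ins2 held 0 counts in all 6 libraries. The limit of 3 counts that a count of 0 allows was 0.0786 to 0.0949 CPM, so Ins2 RNA was not detectable at this depth and no fold change can be given. The other ligands that use the same receptors were also at or near that limit, with 0 counts of Ins1 in all libraries and 1 to 6 counts of Igf1. Igf2 was therefore the only ligand of the insulin-like list with an RNA level above 1 CPM in these cells.

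Around the pair, no tested neighbour moved as far as H19. H19 was picked for its change and had the most negative value of all genes tested, so this order says little about the neighbours. Of 26 neighbours fixed in a list, from Ctsd to Dhcr7, 19 passed the filter, 6 did not and 1, Kcnq1ot1, was not analysed here. Of the 19, 5 were called higher and 0 lower with the replicate block, or 26.3% and 0% against 10.7% and 9.13% of all genes. Without the block 0 of the 19 were called. Their median log2 fold change was 0.27, against 0.02 over all genes tested, and the range was −0.13 to 1.17. Igf2os, an RNA antisense to Igf2, had the highest value. It held 66, 81 and 40 counts in wild-type 1, 2 and 3 and 177, 191 and 83 in S138A A, B and C, with a log2 fold change of 1.17 (SE 0.447, adjusted p = 0.318 without the block and 0.00955 with it, edgeR). Its groups overlapped narrowly, wild-type 2 standing at 2.56 CPM and S138A C at 2.24 CPM. Igf2os and Igf2 exons share 98 bases, of 5337 in Igf2os. The spans of these genes also overlap, with Igf2os at chr7:142659693-142670356. Whether reads were counted by strand is not given in the sources used here, so reads in the shared bases could belong to either gene. If strand was not used, reads of unspliced Igf2 RNA could also count as Igf2os. Igf2 in turn shares 3596 of its 5723 exon bases with Gm49394, a readthrough gene in GENCODE M21. The reads were counted on a different build, mm9, and whether its annotation held Gm49394 was not checked. The effect of these overlaps on the counts was not tested.

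On the H19 side, Mrpl23, which encodes a mitochondrial ribosomal protein, ranged over the wild-type libraries from 0.726 to 1.81 CPM and over the S138A libraries from 0.815 to 2.13 CPM (adjusted p = 0.896, edgeR, and 0.741 with the block). Nctc1, a non-coding RNA that overlaps a muscle enhancer of the domain, held 0 counts in all libraries. Beyond Ins2, Th, tyrosine hydroxylase, lay between 0.162 and 0.811 CPM throughout, and Ascl2, an imprinted transcription factor of trophoblast, had a value of −0.03 on the log2 scale (adjusted p = 0.970, edgeR). Farther on, Cdkn1c, Phlda2 and Cd81 rose in the fit with the block. Cdkn1c, an imprinted inhibitor of the cell cycle, went from 27.4 to 35.8 CPM on average (adjusted p = 0.462 without and 0.0229 with the block, edgeR). Phlda2, an imprinted gene that restrains placental growth, had a log2 fold change of 0.38 (SE 0.113, adjusted p = 0.237 without and 0.0359 with the block), and Cd81, a tetraspanin, one of 0.36 (SE 0.119, adjusted p = 0.263 and 0.0183). Phlda2 and Cd81 were higher in every S138A library than in any wild-type library, whereas for Cdkn1c the highest wild-type library, at 32.5 CPM, was above S138A C. The rows of Mir675 and Mir483 held 0 counts, apart from 1 count of Mir483 in S138A C, and reads inside a host exon may have been left out for falling in overlapping genes, since the counting settings are not stated.

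**Figure D3:**
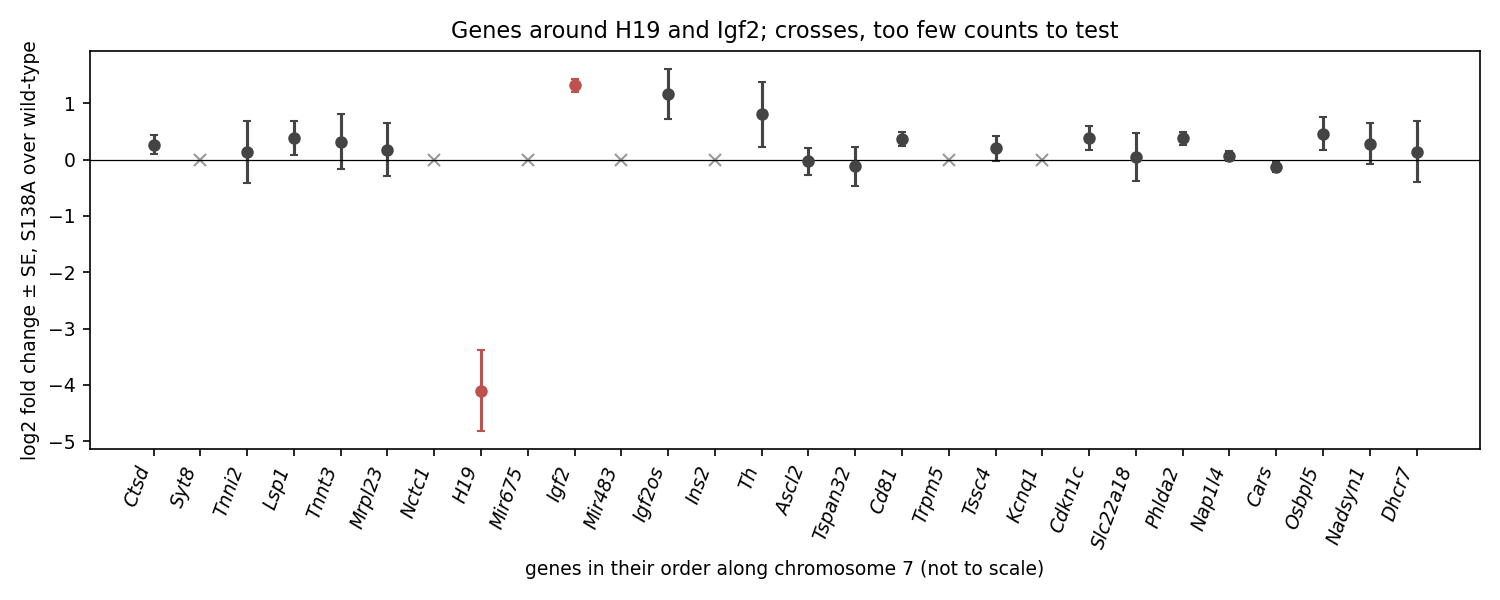
Log2 fold changes (S138A over wild-type, edgeR; bars are standard errors) of H19, Igf2 and their neighbours in chromosomal order, with crosses at 0 for genes with too few counts to test. H19 stands at −4.10 and Igf2 at 1.32, and the tested neighbours lie between −0.13 and 1.17.

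The receptors of IGF2 showed no difference that passed the test. Igf1r, the main signalling receptor, held 17.6, 19.5 and 24.8 CPM in wild-type 1, 2 and 3 and 20.3, 16.0 and 31.0 CPM in S138A A, B and C, a log2 fold change of 0.12 (SE 0.263, adjusted p = 0.868, edgeR, and 0.648 with the block). Insr, the insulin receptor, had a log2 fold change of 0.21 (SE 0.449, adjusted p = 0.865 and 0.230). Igf2r, which takes up IGF2 for degradation and is itself imprinted, had a log2 fold change of 0.24 (SE 0.217, adjusted p = 0.670 and 0.0548). All of these receptors had their highest level in S138A C and, among wild-type libraries, in wild-type 3, the libraries that stand apart.

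The receptor RNAs were also searched for the seed of the microRNAs that H19 carries. For miR-675-3p the letters GCATACA, the reverse complement of its seed, occur 2 times in the 7267 bases after the stop codon of Igf1r-201, 1 time in the 4747 bases of Insr-201 and 0 times in the 1304 bases of Igf2r-201. They occur in 7.86% of 20975 genes with such a region, counted once per gene and whatever its length. The matches are given with flanking bases from GENCODE M21, the seed match in capitals.
Igf1r match at bases 505 to 511: catcaccccGCATACAcctgcctga
Igf1r match at bases 1264 to 1270: gaaacatttGCATACAcatcgtctt
Insr match at bases 3546 to 3552: tgatgtcaaGCATACAtcaggagat
The seed of miR-675-5p had 0 matches in the 3 receptors. A match is a description of letters, and neither the microRNA nor its binding was measured.

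Of the IGF-binding proteins and their proteases, 6 of 8 passed the filter, with a median log2 fold change of 0.21. With the block 2 were called higher, or 33.3% against 10.7% of all genes, and 0 lower, against 9.13%. Igfbp4, which binds IGFs outside the cell, held 9.53, 10.4 and 14.9 CPM in wild-type 1, 2 and 3 and 19.6, 21.5 and 29.1 CPM in S138A A, B and C. These groups did not overlap, and the log2 fold change was 1.01 (SE 0.234, adjusted p = 0.191, edgeR, and 0.00370 with the block). Igfbp2, the most abundant of the family here, had a log2 fold change of 0.45 (SE 0.439, adjusted p = 0.693 and 0.0167), and its groups overlapped.

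Downstream of the receptors, 3 of 11 adaptors and kinases rose with the block and 0 fell, or 27.3% and 0%. Of all genes, 10.7% rose and 9.13% fell. The list's median log2 fold change was 0.08. Irs2, an adaptor that couples the receptors to PI3 kinase, stood at 22.6 ± 1.49 CPM in wild-type and 35.4 ± 1.38 CPM in S138A cells (SD, n = 3 each), a log2 fold change of 0.64 (SE 0.107, adjusted p = 0.170, edgeR, and 0.00816 with the block). Irs1, its relative, rose from 7.15 ± 0.489 to 10.2 ± 0.255 CPM (adjusted p = 0.225 and 0.0224). In both adaptors every S138A library was above every wild-type library.

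RNA-binding proteins that act on Igf2 or H19 RNA, and the enzymes that process microRNAs, were the list with the lowest median. All 9 passed the filter, and the median log2 fold change was −0.15. With the block 3 were called lower, or 33.3% against 9.13% of all genes, and 0 higher, against 10.7%. Lin28b, which blocks the maturation of let-7 microRNAs, held 67.5, 71.9 and 58.7 CPM in wild-type 1, 2 and 3 and 51.8, 49.2 and 43.2 CPM in S138A A, B and C (log2 fold change −0.46, SE 0.121, adjusted p = 0.210, edgeR, and 0.0106 with the block). Igf2bp2 had a log2 fold change of −0.40 (SE 0.114, adjusted p = 0.225 and 0.0322), with all S138A libraries below all wild-type libraries. The other 2 proteins of that family, named for binding Igf2 mRNA, did not pass either test. Igf2bp1 stood at 647 to 926 CPM in wild-type and 462 to 842 CPM in S138A libraries (adjusted p = 0.757 and 0.0920), and Igf2bp3 differed by 0.08 on the log2 scale (adjusted p = 0.868 and 0.556). Elavl1, which encodes the RNA-binding protein HuR, had a log2 fold change of −0.30 (SE 0.163, adjusted p = 0.466 and 0.0360), with overlapping groups.

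Of 22 genes of factors that bind, methylate or protect imprinting control regions, all passed the filter, and the median log2 fold change was −0.06. With the block 1 rose and 2 fell, or 4.55% and 9.09%, against 10.7% and 9.13% of all genes. Ctcf, whose protein insulates the maternal Igf2 allele, stood at 146 to 223 CPM in wild-type and 139 to 198 CPM in S138A libraries (log2 fold change −0.17, SE 0.204, adjusted p = 0.754, edgeR, and 0.133 with the block). Zfp57 and Trim28, which keep methylation at imprinted regions, differed by −0.09 (adjusted p = 0.877 and 0.302) and −0.15 (adjusted p = 0.840 and 0.182) on the log2 scale. Dnmt1, Uhrf1 and Dnmt3a were among the 19 that did not pass either test.

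Dppa3 was the exception in size among these factors. It encodes a protein that shields methylated maternal DNA and some imprinted regions in the early embryo from demethylation. Dppa3 held 645, 578 and 1132 counts in wild-type 1, 2 and 3 and 97, 85 and 156 in S138A A, B and C, or 22.5 ± 6.25 CPM against 3.11 ± 0.982 CPM (SD, n = 3 each). The log2 fold change was −2.85 (SE 0.304, adjusted p = 0.0789, edgeR, and 0.000231 with the block). Like H19, Dppa3 was lower in all S138A libraries and highest in wild-type 3. Tet3, a dioxygenase that oxidises methylated cytosine, had a log2 fold change of 0.46 (SE 0.155, adjusted p = 0.270 and 0.0137), and Dnmt3b, a de novo methyltransferase, one of −0.33 (SE 0.289, adjusted p = 0.648 and 0.0163) with overlapping groups. DNA methylation was not measured in these libraries.

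Genes described as a network with H19 and Igf2, most of them imprinted and at other loci, were tested in 13 of 15 cases. Their median log2 fold change was 0.10. With the block 3 were called higher, or 23.1% against 10.7% of all genes, and 0 lower, against 9.13%. The list holds Dcn and Gatm, which are not imprinted in most tissues, and shares Cdkn1c with the neighbours, where it was already counted, Igf2r with the receptors and Grb10 with the adaptors. Dlk1, a paternally expressed ligand-like membrane protein, held 65, 62 and 124 counts in wild-type 1, 2 and 3 and 164, 191 and 245 in S138A A, B and C. Its groups did not overlap, and the log2 fold change was 1.20 (SE 0.282, adjusted p = 0.192, edgeR, and 0.00762 with the block). Meg3, the maternally expressed non-coding RNA of the Dlk1 locus, had a log2 fold change of 0.10 (SE 0.160, adjusted p = 0.829 and 0.609). Gnas, which encodes a G protein subunit from a complex imprinted locus, had a log2 fold change of 0.37 (SE 0.127, adjusted p = 0.287 and 0.0198). Plagl1, a transcription factor described as a regulator of the network, had a log2 fold change of −0.70 (SE 0.397, adjusted p = 0.483 and 0.244), and Mest and Peg3 had values of −0.19 (adjusted p = 0.769 and 0.0969) and −0.09 (adjusted p = 0.782 and 0.389).

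Over all these lists, less the members, 80 of 94 genes were tested. With the block 13 were called higher, or 16.2% against 10.7% of all genes, and 5 lower, or 6.25% against 9.13%. The S138A libraries were all above the wild-type libraries in 10 and all below in 4 of the 80, or 12.5% and 5%, against 11.3% and 10.9% of all genes. The lists' median log2 fold change was 0.04 against 0.02.

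**Figure D4:**
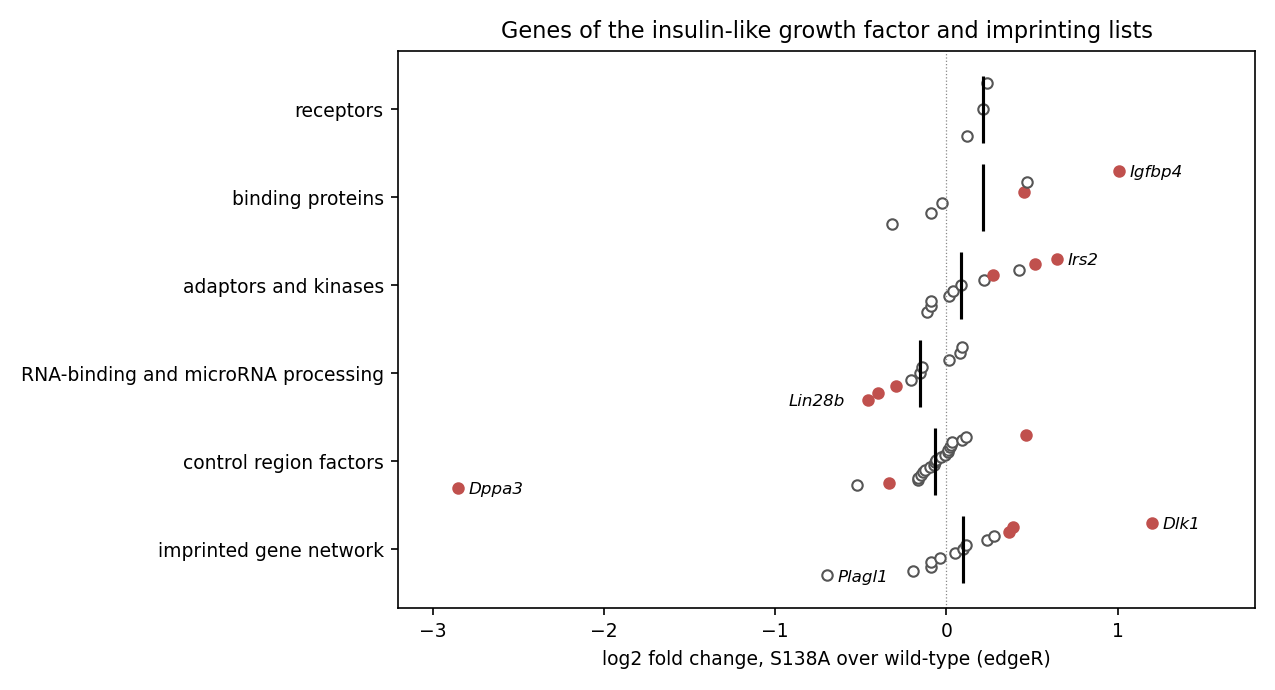
Log2 fold changes (S138A over wild-type, edgeR) of the tested genes of 6 lists; each point is a gene, filled where called with the replicate block, and black bars are list medians. Most genes lie near 0, with Dppa3 at −2.85, Dlk1 at 1.20 and Igfbp4 at 1.01 farthest out.

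Genes whose log2 CPM ran most alike with the pair over the 6 libraries were sought among 12466 others with a mean of at least 2 CPM. For Igf2 these were Csrnp2 (Pearson r 0.995), Pdzrn3, Tmprss2, Nfic and Trim46 (0.992 each). Csrnp2 stood at 20.8 to 21.0 CPM in wild-type and 29.5 to 31.7 CPM in S138A libraries, and Tmprss2, a serine protease of the cell surface, at 0.605 to 0.728 and 3.04 to 4.11 CPM. Tmprss2 thus reached the mean of 2 CPM only through its S138A libraries. Pdzrn3 stood at about that limit in wild-type 1, 2 and 3 (1.73, 1.99 and 2.25 CPM) and at 3.94 to 4.78 CPM in S138A libraries. For H19 the closest were Jade3 (0.9995), Vdac1 (0.999), Crlf3 (0.997), Npepps (0.996) and Rab1a (0.995). Vdac1, a channel of the outer mitochondrial membrane, held 505, 487 and 609 CPM in wild-type 1, 2 and 3 and 375, 369 and 390 CPM in S138A A, B and C. These genes were chosen by r with H19, so sharing its order of libraries follows from the choice. All were highest in wild-type 3 and lower in every S138A library than in any wild-type library. Their differences were smaller than that of H19, since their wild-type means were 1.35 to 1.49 times the S138A means. Dppa3 had an r of 0.973 with H19, at rank 65, and Igf2os an r of 0.767 with Igf2, at rank 1075. Between Igf2 and H19 themselves r was −0.909. The 6 points fall into 2 genotypes and share the libraries that stand apart, so these values describe the libraries and carry no test.

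Markers of other cells were counted with the replicate block, beside 10.7% of all genes higher and 9.13% lower, and 0 of them were called without it. The fibroblast list summed to 52.3 to 79.5 CPM in wild-type and 87.8 to 128 CPM in S138A libraries. Of its 13 genes 9 were tested, and 5 of these (Col1a1, Col3a1, Thy1, Prrx1 and Fbn1) were called higher. Among them, Prrx1 (mean 0.130 CPM in wild-type and 0.547 CPM in S138A) and Col3a1 (0.537 and 1.66 CPM) were low. The other tested genes were not called, with log2 fold changes of −0.26 for Col1a2, −0.08 for Twist1, 0.37 for Postn and 0.40 for Pdgfrb. Fap, of the same list, held 0 counts in all libraries, and Dcn and Lum did not exceed 0.158 and 0.0290 CPM in any library. The mesoderm and muscle list summed to 66.0 to 93.7 CPM in wild-type and 95.3 to 106 CPM in S138A libraries, with 1 of 7 tested genes called higher. The primitive endoderm list summed to 347 to 358 and 360 to 388 CPM, with 2 of 11 tested genes called higher and 1 lower, while Afp and Ttr were near 0. The trophoblast list summed to 490 to 538 CPM in wild-type libraries and to 752, 803 and 420 CPM in S138A A, B and C. Most of the sum was Krt8 and Krt18, with wild-type means of 228 and 215 CPM. Of its 9 tested genes 2 (Cdx2 and Krt7) were called higher and 1 (Tfap2c) lower. Of the 12 ESC markers, 2 (Tbx3 and Klf4) were called higher and 1 (Zfp42) lower. The part of other cell types in the Igf2 and H19 differences was not tested.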

How the data were processed

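PolyA RNA of 3 wild-type and 3 *Ube2d3*-S138A E14 ESC libraries was sequenced. The paper given here covers other assays and has no account of the RNA sequencing. According to the submitters' processing notes the authors used CASAVA 1.8.4, TopHat2 2.0.11, featureCounts and the mouse build mm9 (NCBIM37), and they deposited raw counts per gene. Strand and overlap settings, and the featureCounts version, are not given in the sources used here. Exon lengths and coordinates come from GENCODE M21 on GRCm38, a different build. S138A columns carry no replicate number in the labels' form and are called A, B and C.

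Genes were kept with filterByExpr (minimum count 10, minimum total 15) and compared with edgeR 4.0.16 (TMM, quasi-likelihood test, Benjamini-Hochberg adjusted p under 0.05) in R 4.3.3, with limma 3.58.1 and DESeq2 1.42.0 as alternatives. Standard errors were taken from the log2 fold change and the F statistic (its size over the root of F). The test was checked on simulated data that held no split between the libraries, so the check does not cover the split seen here. In the block, the last digit in the S138A columns' names served as replicate number. Deviations from group means correlated at 0.530, 0.493 and 0.753 in the 3 pairs, and crossing numbers 1 and 2 gave 0.526 and 0.515, so those pairs cannot be told apart.

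The members, the gene lists and the rules were chosen with earlier results of these data known. The text names the members, a fixed set of receptors, RNA-binding, imprinting and neighbouring genes, up to 4 genes per list called with or without the block with a mean of at least 1 CPM, by size of change, and the 5 genes most alike with Igf2 and with H19. Marker genes and the ligands of the lists were named beside these. Some results for genes named by this rule are not reported here. Figures were drawn with Python 3.11.15 and matplotlib 3.10.9.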

Additional observations from a re-analysis of the deposited data

How the results depend on the processing

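Igf2 stayed higher and H19 lower in S138A cells under all alternatives run, which were RLE and upper-quartile scaling, no low-count filter, a filter of 1 CPM in 3 libraries, DESeq2, limma-voom, the replicate block, a term that sets wild-type 3 with S138A C apart, the other 4 libraries alone, and each library left out. Leaving out 1 library gave log2 fold changes of 1.24 to 1.40 for Igf2, −4.47 to −2.96 for H19 (−2.96 without wild-type 3) and 4.35 to 5.48 for the log2 ratio (4.35 without wild-type 3). The replicate block gave 1.32, −3.84 and 5.06. The number of called genes moved far more. edgeR called 0 genes, and without the low-count filter 2 higher and 2 lower. DESeq2 called 420 higher and 377 lower, the replicate block 1717 and 1463, the term for wild-type 3 with S138A C 2338 and 2080, and the other 4 libraries alone 2463 and 2293. Leaving out 1 library gave 0 to 59 higher and 0 to 20 lower, with 59 and 20 without S138A C. Of the pathway and neighbour genes, 0 were called, against 1 without the filter, 6 with DESeq2, 18 with the replicate block, 22 with the term, 28 in the other 4 libraries alone and 0 to 1 with 1 library left out. Where more pathway and neighbour genes were called, more of all genes were called too, so the added calls do not mark these lists out. In 14 of the pathway and neighbour genes the groups did not overlap, against 53 in those 4 libraries. With 1 library left out it was 14 to 36 (36 without wild-type 3, 28 without S138A C). Fewer values must separate in these smaller sets, and the share of all genes without overlap is not given for them. The counts from these sets therefore have no background to be read against. Ins2, at 0 in all libraries, gives no fold change under any alternative. Levels of a few counts, as of Mir483 and Igf1, are limited by depth.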
